A study of Mus musculus with 6 samples.

Results

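The vault RNA Vaultrc5, the Y RNA Rny1, the RNase MRP RNA Rmrp and the RNase P RNA Rpph1, are small structured RNAs, which were followed in RNA recovered with Staufen2 and in input RNA of mouse podocytes. These 4 genes, of 19938 genes measured, were chosen by name as RNAs of RNA polymerase III, and they were selected on their large negative difference between pulldown and input in these same arrays. Their differences are therefore given as a description, without a test. Podocytes are the epithelial cells that cover the capillaries of the kidney glomerulus, and the cells here were an immortalized line differentiated at 37 °C without interferon gamma. The input group held 3 arrays of total podocyte RNA, and the labels do not state whether it was taken from the lysate or from whole cells. The stau2 group held 3 arrays of RNA that came down with a Staufen2 antibody and protein G beads from a cytoplasmic detergent lysate of the same line. All 6 arrays were labelled from 100 ng of RNA, so a value describes the share of an RNA and not its amount.

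RNA polymerase III makes short untranslated RNAs such as 5S ribosomal RNA, transfer RNAs and 7SK RNA. Vault RNAs sit in the vault, a large cytoplasmic particle built mostly of major vault protein. Y RNAs are bound by the Ro60 and La proteins and take part in RNA quality control and DNA replication. RNase P trims the 5′ ends of transfer RNA precursors, and RNase MRP cleaves the precursor of ribosomal RNA in the nucleolus. Both enzymes are built around a catalytic-type RNA, share most of their proteins and reside largely in the nucleus. Mutations of the human RMRP gene cause cartilage-hair hypoplasia. Staufen2 binds double-stranded stretches of RNA and is known for mRNA transport.

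Rmrp and Rpph1 each lie beside a protein-coding gene, and the stretch between the genes is shown because the signals of both neighbours could be compared. Rpph1 and Parp2, which encodes a poly(ADP-ribose) polymerase of DNA repair, are known to be transcribed away from each other from a shared promoter. Promoters of this class of polymerase III gene carry a distal element with an octamer, the letters ATGCAAAT, to which the factor Oct-1 binds. The sequences are RefSeq's, build GRCm38.p6, plus strand, with the octamer in capitals. The first is chr14:50807772-50807896, all 125 bases between the spans of Rpph1 and Parp2, and the other is chr4:43493115-43493339, the 225 bases nearest to Ccdc107 of the 280 between its span and that of Rmrp.
Rpph1 to Parp2: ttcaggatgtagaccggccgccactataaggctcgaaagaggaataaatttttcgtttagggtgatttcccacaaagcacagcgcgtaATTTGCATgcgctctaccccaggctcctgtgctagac
Rmrp to Ccdc107: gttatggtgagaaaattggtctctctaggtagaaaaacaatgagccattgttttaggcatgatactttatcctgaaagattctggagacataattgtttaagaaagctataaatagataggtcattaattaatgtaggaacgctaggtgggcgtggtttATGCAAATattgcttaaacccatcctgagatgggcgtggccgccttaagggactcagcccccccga
Each stretch held 1 octamer, on the minus strand beside Parp2 and on the plus strand beside Ccdc107. The octamer lay 89 bases from the span of Rpph1 and 215 bases from that of Rmrp. It occurred on either strand in 1.60% of the 32851 windows of 250 bases before a gene start in the same table. Both printed stretches are shorter than these windows, so such a share is only a rough guide. The letters TATAAA, searched on both strands, occurred in 12.4% of those windows and once in the printed stretch beside Ccdc107. These letters were not found between Rpph1 and Parp2. The bases next to Rmrp, outside the printed stretch, were not searched. A match of letters describes the sequence and is not a measured binding site.

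The arrays of a group resembled each other closely. Array medians were 6.53 to 6.54 on the log2 scale, and the Pearson correlation across probe sets reached 0.998 to 0.999 between arrays of the same group, against 0.982 to 0.983 between arrays of different groups. Separate cultures behind the arrays of a group are not stated in the labels, so a p-value here reflects only how these samples vary, possibly for technical reasons, and precision is limited by having 3 arrays a group. In bulk RNA, fewer cells of a type and less RNA per cell cannot be told apart, and in a share a smaller recovery of 1 RNA and a larger recovery of others cannot be told apart either. Of 10 measured podocyte markers, 6 had an input mean over 6.54, the median of all probe sets, among them Wt1 at 9.57 and Synpo at 8.29, whereas Nphs1 (6.30), Podxl (6.04), Ptpro (6.10) and Tcf21 (5.91) did not. None of 5 endothelial and 1 of 5 immune markers exceeded that median, and 3 of 5 tubular and 2 of 4 mesangial markers did, with Acta2 at 13.57. A pulldown with a control antibody was not analysed here, so lower and higher values describe the share in the pulldown relative to the input. The pulldown came from a cytoplasmic lysate, and the input may hold RNA of whole cells. For a lower value, location in the nucleus and little recovery with Staufen2 therefore cannot be told apart. The mRNA of the targeted protein, Stau2, differed by -0.02 (log2 difference, limma adjusted p = 0.519), and by -0.13 after cyclic loess (adjusted p = 0.00519).

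**Figure D1:**
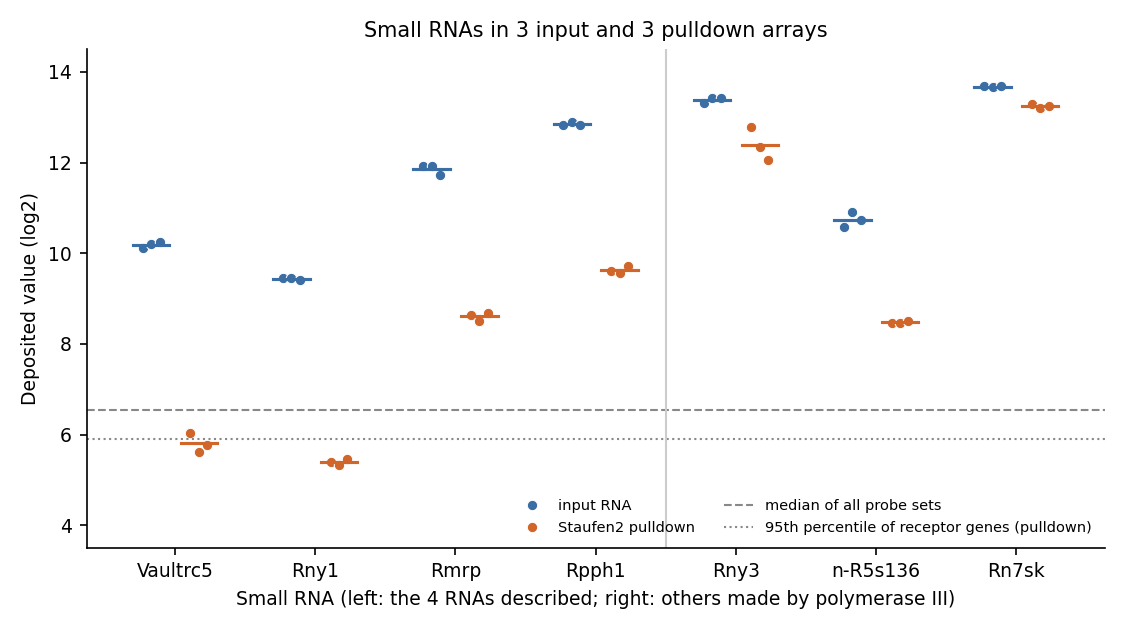
Deposited log2 value of each RNA on each array (y axis), with 3 input arrays in blue, 3 pulldown arrays in orange and a bar at the mean of each group. The pulldown arrays of Vaultrc5 and Rny1 fall under the dashed line (6.54, the median over probe sets), those of Rmrp and Rpph1 reach no lower than 8.49, and Rny3 and Rn7sk reach no lower than 12.05 on any array.

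Vaultrc5 had the most negative difference of all genes measured. The input arrays read 10.12, 10.20 and 10.25 (log2 value), and the pulldown arrays read 6.03, 5.61 and 5.77. The groups were far apart, and the lowest input array exceeded the highest pulldown array by 4.09. The log2 difference, pulldown minus input, was -4.38 ± 0.099 (moderated SE, n = 3 against 3), or 20.9-fold lower in the pulldown. The pulldown arrays spread more (SD 0.21) than the input arrays (SD 0.062).

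Rny1 read 9.45, 9.45 and 9.41 in the input and 5.38, 5.32 and 5.45 in the pulldown. Both groups were tight, with SDs of 0.024 and 0.065, and were 3.96 apart at their closest arrays. The log2 difference was -4.05 ± 0.039 (SE), or 16.6-fold lower. It ranked as the third most negative of all genes.

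How low these 2 RNAs fell in the pulldown could not be resolved. As a guide to signal without transcript, 1228 genes of odorant, vomeronasal and taste receptors had a median of 4.79 and a 95th percentile of 5.91 in the pulldown. The pulldown means of Vaultrc5 (5.80) and Rny1 (5.39) lay below that 95th percentile, above 93.2% and 86.0% of the receptor genes. Read down to that percentile only, the input means stood 4.28 above it for Vaultrc5 and 3.53 for Rny1 (log2 difference). Their input values exceeded every receptor gene, as did both group means of Rmrp and Rpph1.

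Rmrp read 11.93, 11.93 and 11.74 in the input and 8.64, 8.49 and 8.69 in the pulldown. The signal in the pulldown was still higher than that of 68.0% of all probe sets. The log2 difference was -3.26 ± 0.069 (SE), or 9.57-fold lower, and the groups were 3.05 apart at their closest arrays.

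Rpph1 read 12.82, 12.90 and 12.83 in the input and 9.61, 9.57 and 9.71 in the pulldown. The log2 difference was -3.22 ± 0.044 (SE), or 9.31-fold lower, and the groups were 3.11 apart at their closest arrays. The RNAs of the related nucleases thus had differences less than 1 SE of Rmrp apart, and the vault and Y RNAs had the larger ones. Within the pulldown group all 4 RNAs read lowest on replicate 2, by 0.059 to 0.19 below the group mean. Each gene had 1 probe set, and none of the 4 was listed on a probe set shared with another gene.

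Over the 4 RNAs the median log2 difference was -3.66, against 0.04 over all 19938 genes. Such sizes were rare on the array, and since the RNAs were chosen for them nothing further is read from the count. Only 10 genes (0.0502%) were lower by 3 or more on the log2 scale, and 7 of the 5942 genes (0.118%) with an input mean at or above that of Rny1. Besides the 4 RNAs the 10 comprised 5 small nucleolar RNAs and the Cajal body RNA Scarna17, so every one was a short noncoding RNA. In the fit across all genes, 17.3% of genes were called lower in the pulldown by limma at an adjusted p under 0.05, 31.3% were called higher, and 48.7% were called in either direction. Among the genes with an input mean at or above that of Rny1, 34.4% were called lower. In 19.6% of all genes every pulldown array lay below every input array, as it did for the 4 RNAs. After cyclic loess scaling 52.9% of the calls were higher, against 64.4% with the deposited values.

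**Figure D2:**
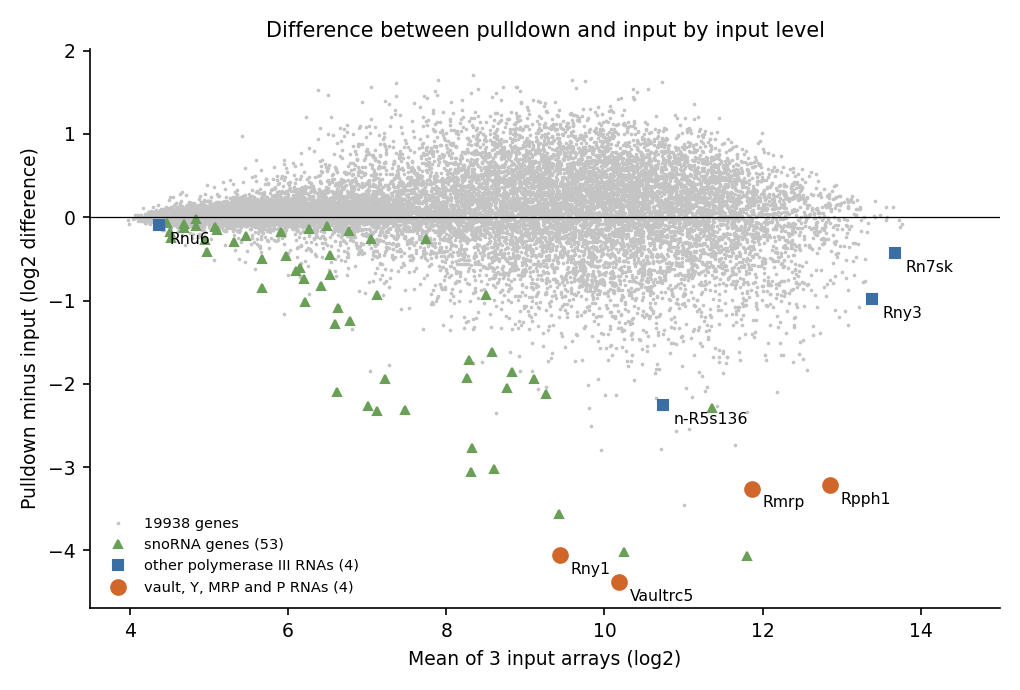
Pulldown minus input (log2 difference, y axis) against the mean of the 3 input arrays (log2, x axis) for 19938 genes in grey, with 53 small nucleolar RNA genes as green triangles, the 4 other polymerase III RNAs as blue squares and the 4 RNAs described as orange circles. The orange circles lie between -4.38 and -3.22, whereas the blue squares run from -2.26 to -0.10 and include RNAs with higher input values.

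Other RNAs of polymerase III were measured by 4 genes, and 3 of them fell while Rnu6 did not pass the test. Their median log2 difference was -0.71. Rny3, the other mouse Y RNA, read 13.31, 13.42 and 13.41 in the input and 12.79, 12.35 and 12.05 in the pulldown. The groups did not overlap, but the pulldown arrays were more scattered (SD 0.37) than those of Rny1 (SD 0.065). Rny3 fell by 0.99 on the log2 scale (SE 0.16, limma adjusted p = 0.0015), or 1.98-fold.

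The 2 Y RNA genes lie 6345 bases apart, with spans of 111 bases (Rny1) and 101 bases (Rny3). Their log2 differences were nonetheless 3.07 apart. This gap is a description, since Rny1 was chosen for its low value. Rny3 stood near the top of the scale in the input (percentile 99.83 of all probe sets, with array maxima of 13.88 to 14.06), where arrays can compress differences, and the part of this in the gap was not tested.

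The 7SK RNA Rn7sk, which holds the elongation factor P-TEFb inactive, read 13.68, 13.66 and 13.69 in the input and 13.30, 13.20 and 13.24 in the pulldown. It fell by 0.43 on the log2 scale (limma adjusted p = 1.7e-05), also from the top of the scale. Its other probe set differed by -0.24. The 5S ribosomal RNA gene n-R5s136 read 10.59, 10.90 and 10.73 in the input and 8.47, 8.46 and 8.52 in the pulldown, a log2 difference of -2.26 ± 0.074 (SE, limma adjusted p = 4.3e-07). The 5S genes are near-identical copies, so its value cannot be assigned to 1 copy. Rnu6, the U6 spliceosomal RNA, had an input mean of 4.37 and a pulldown mean of 4.27 (adjusted p = 0.113). Both lay within the range of the receptor genes, and after centring on bright probe sets it was called lower at -0.14 (adjusted p = 0.0266), so little can be read from it.

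Both measured RNase P RNA-like genes, which were named after their values were seen, fell. Rprl2 read 10.14, 10.19 and 10.13 in the input and 8.10, 7.97 and 7.97 in the pulldown, a log2 difference of -2.14 ± 0.044 (SE, limma adjusted p = 1.9e-07). Rprl1 had a log2 difference of -1.85 ± 0.096 (SE, adjusted p = 2.5e-06), with pulldown arrays from 7.03 to 7.45. Whether their probes also capture Rpph1 was not tested.

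Among small RNAs made by RNA polymerase II, the telomerase RNA Terc read 10.02, 9.81 and 9.55 in the input and 7.77, 7.70 and 7.86 in the pulldown, a log2 difference of -2.02 ± 0.11 (SE, limma adjusted p = 3.2e-06). The minor spliceosomal RNA Rnu12 stood at -1.10 (adjusted p = 0.00020). The U3 RNA Rnu3a stood at -1.85 (adjusted p = 7.1e-05), but its pulldown mean of 5.19 lay below the 95th percentile of the receptor genes (5.91). The U5 RNA Rnu5g passed the test at -0.63 (adjusted p = 0.0043) with both means, 5.58 and 4.95, below that percentile in their group (5.89 in the input), so the sizes of these 2 differences cannot be read closely. Rnu7 of histone mRNA processing did not pass, at 0.07 (adjusted p = 0.52), with group means under 5. All noncoding genes with a span under 500 bases, microRNAs and the 4 RNAs left out, numbered 72. They included the polymerase III RNAs Rny3 and Rn7sk. Of these 72 genes, 57 were lower, 0 higher and 15 not past the test, with a median log2 difference of -0.84. In both groups 33 of them stayed under the median of all probe sets. Of the 297 microRNA genes, 18 were lower and 17 higher, and 241 stayed under 6.54, the array-wide median, in both groups. The counts of both classes stand beside 17.3% of all genes called lower and 31.3% called higher.

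**Figure D3:**
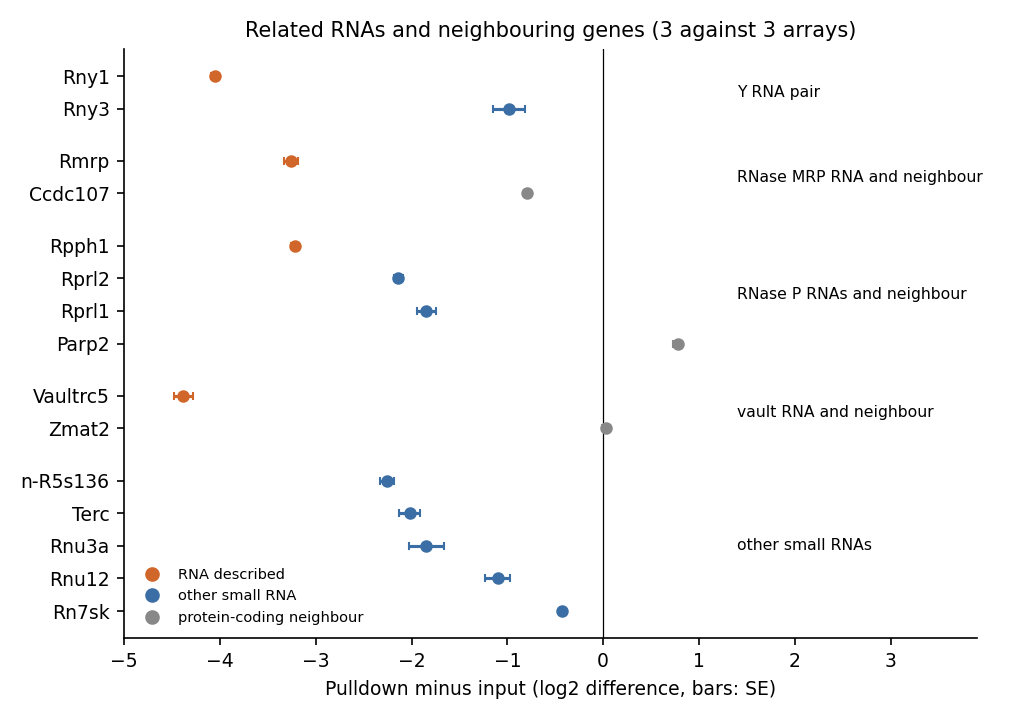
Log2 difference between pulldown and input (x axis, points, with bars for the moderated SE, 3 against 3 arrays) of the 4 RNAs in orange, other small RNAs in blue and protein-coding neighbours in grey. Rny1 (-4.05) and Rny3 (-0.99) differ widely within 1 family, and Parp2 (0.78) lies on the other side of 0 from its neighbour Rpph1 (-3.22).

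The flanking coding genes were the nearest measured on each side of the 4 RNAs. Of these 8, 1 was called lower, 3 higher and 4 did not pass the test. Over all genes 17.3% were called lower and 31.3% higher, and nothing is read from these counts. Gaps between a flanking gene and its RNA are a description, since the RNAs were selected on their low values. Parp2, which begins 125 bases past the span of Rpph1, read 9.03, 9.01 and 8.97 in the input and 9.84, 9.81 and 9.70 in the pulldown. It rose by 0.78 ± 0.043 (log2 difference ± SE, limma adjusted p = 3.3e-06), so it and Rpph1 had differences of opposite sign, 4.00 apart. Ccdc107, which encodes a coiled-coil membrane protein and begins 280 bases past the span of Rmrp, read 9.43, 9.38 and 9.45 in the input and 8.66, 8.62 and 8.60 in the pulldown. It fell by 0.80 on the log2 scale (adjusted p = 9.0e-07), 2.46 less than Rmrp was lower. Zmat2, the measured coding gene nearest to Vaultrc5 at 2102 bases, differed by 0.03 (adjusted p = 0.64). Pdia4, a protein disulfide isomerase gene 7960 bases from Rny1, differed by 0.08 (adjusted p = 0.037), and by -0.01 after cyclic loess (adjusted p = 0.845). The other 4 were farther off: Ezh2 192799 bases from Rny1, Sit1 9075 from Rmrp, Ccnb1ip1 11718 from Rpph1 and Pcdhb1 462890 from Vaultrc5. Ezh2 differed by 0.14 (adjusted p = 0.0034), and by 0.03 after cyclic loess (adjusted p = 0.37). Sit1, Ccnb1ip1 and Pcdhb1 did not pass.

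The profiles most like the mean of the 4 RNAs were sought among named genes other than small nucleolar RNAs. Likeness was the Euclidean distance over the 6 arrays, each gene centred on its own mean. Scarna17 was nearest, at a distance of 0.41, within the 0.41 to 0.84 of the 4 RNAs themselves. Its input arrays read 11.07, 10.98 and 10.96 and its pulldown arrays 7.43, 7.48 and 7.74. Next among the genes searched were Plac8 at 1.16, the histone gene H2bc3 at 1.17 and the ribosomal protein gene Rps12 at 1.22. The step from Scarna17 to Plac8 is not read, since the small nucleolar RNAs left out included 5 genes lower by 3 or more. Rps13, the respiratory chain gene Uqcr11, Taf1d and the granzyme gene Gzme followed at 1.45 to 1.71. Since this distance mostly reads the size of the difference, it says little beyond the order of the differences.

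The mRNAs of the proteins that work with these RNAs included both lower and higher ones. The counts below stand beside 17.3% of all genes called lower and 31.3% called higher. Among genes with an input mean at or above that of Rny1, 34.4% were called lower. The lists are not limited to that level and run down to an input mean of 6.15. Of 12 measured genes of RNase P and RNase MRP proteins, 9 were lower, 2 higher and 1 not past the test. The median log2 difference of these 12 was -0.50, against 0.04 over all genes. Pop4, of the shared protein core, fell by 0.68 ± 0.028 on the log2 scale (SE, limma adjusted p = 9.2e-07), Rpp30 by 0.74 ± 0.038 (adjusted p = 2.4e-06) and Rpp21 by 0.84 ± 0.057 (adjusted p = 9.8e-06). Pop5 had the largest difference of the list, -1.26, and Rpp38, which binds the RNA, stood at -0.50. Higher were Nepro, a nucleolar protein related to an RNase MRP subunit of yeast, by 0.60 ± 0.039 (adjusted p = 7.6e-06), and Pop1, the largest subunit, by 0.28 ± 0.060 (adjusted p = 0.0059). Rpp25 stood at -0.09 (adjusted p = 0.17) and at -0.13 after cyclic loess, where it was called lower.

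Mitochondria of mammals cut transfer RNA precursors with a protein-only enzyme that holds no Rpph1. Of its 3 genes, Hsd17b10 was lower, with a log2 difference of -1.16 ± 0.052 (SE, limma adjusted p = 1.3e-06). Trmt10c (-0.01, adjusted p = 0.78) and the nuclease gene Prorp (-0.19, adjusted p = 0.056) did not pass with the deposited scaling, and both were called lower after cyclic loess, at -0.08 and -0.30. Prorp was also called lower after centring on bright probe sets (-0.23).

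Proteins of the vault and of Ro particles, with proteins described to bind Y RNA, gave 5 higher, 3 lower and 2 not past the test of 10 measured (median log2 difference 0.11). Mvp, the major vault protein, had an input mean of 10.07 and a pulldown mean of 10.50 and rose by 0.43 ± 0.048 (log2 difference ± SE, limma adjusted p = 0.00015). Its mRNA and Vaultrc5 had differences of opposite sign, which is only a description, since Vaultrc5 and Rny1 were selected on their low values. The mRNA of Ro60, which binds Rny1 and Rny3, rose by 0.69 ± 0.037 (adjusted p = 3.0e-06). Ssb, the La protein that binds the 3′ ends of new polymerase III transcripts, rose by 0.16 ± 0.045 (adjusted p = 0.024), a call that ended after cyclic loess (0.05) and after centring on bright probe sets (0.11). The splicing regulator Ptbp1 rose by 0.37 ± 0.030 (adjusted p = 2.5e-05). Lower were the cold-shock proteins Ybx1 (-0.67) and Ybx3 (-0.44) and Zbp1 (-1.17). The symbol Zbp1 stands for the Z-nucleic acid sensor, which is no Ro particle protein but is kept in the counts and median of this list. The vault proteins Tep1 and Parp4 had no probe set with that single symbol and were not analysed here.

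Of 33 RNA polymerase III subunits and factors, 14 were lower, 13 higher and 6 not past the test (median log2 difference -0.05, against 0.04 over all genes). The lower ones included polypeptides shared by several polymerases, Polr2l at -1.32 ± 0.057 (SE, limma adjusted p = 1.1e-06) and Polr2h at -0.84 ± 0.035 (adjusted p = 9.2e-07), and Gtf3a, the 5S gene factor TFIIIA, at -0.76 ± 0.030 (adjusted p = 8.0e-07). The higher ones included Bdp1 of the initiation factor TFIIIB at 1.19 ± 0.051 (adjusted p = 1.1e-06) and the TFIIIC subunits Gtf3c1 at 0.87 ± 0.031 (adjusted p = 5.3e-07) and Gtf3c4 at 0.87 ± 0.040 (adjusted p = 1.4e-06). The 2 largest subunits of the enzyme itself, Polr3a (0.41) and Polr3b (0.63), also rose. Of the complex that recruits the polymerase to Rmrp- and Rpph1-type promoters, Snapc4 (0.52) and Snapc3 (0.23) rose. The call of Snapc3 ended after cyclic loess (0.12). The subunits Snapc2 (-0.27) and Snapc5 (-0.37) were lower, and Snapc1 (-0.03) did not pass.

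Genes of processing, decay and export of polymerase III RNAs showed 13 higher, 9 lower and 7 not past the test of 29 (median log2 difference 0.06). Of the 7 genes Lsm2 to Lsm8, whose proteins form the ring on the 3′ end of U6 RNA, 6 were lower, led by Lsm8 at -1.33. Lsm7 stood at -1.20 ± 0.027 (SE, limma adjusted p = 2.0e-07), Lsm3 at -0.73 ± 0.040 (adjusted p = 3.3e-06) and Lsm4 at -0.72 ± 0.031 (adjusted p = 1.1e-06), and Lsm6 (-0.10, adjusted p = 0.169) did not pass, although it was called lower after cyclic loess (-0.19). Dicer1, which cuts double-stranded RNA, rose by 1.20 ± 0.029 (adjusted p = 2.2e-07), Dis3, the exosome nuclease, by 0.86 ± 0.039 (adjusted p = 1.4e-06) and Xpot, the exporter of transfer RNA, by 0.84 ± 0.031 (adjusted p = 6.1e-07). Nsun2, which methylates vault RNA, rose by 0.34 (adjusted p = 0.000205).

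Genomic span, which is not the length of the RNA, differed between the genes called lower and higher in these lists. Over the 4 lists of RNase P and RNase MRP, vault and Ro, polymerase III and processing genes, 35 were called lower and 33 higher. Their median spans were 5.52 kb and 32.07 kb. The genes called lower had the smaller median in each list, but in the vault and Ro list the medians were close, at 18.94 kb and 23.79 kb. Spans of called genes over all genes are not given here, and the part of span in the calls was not tested.

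**Figure D4:**
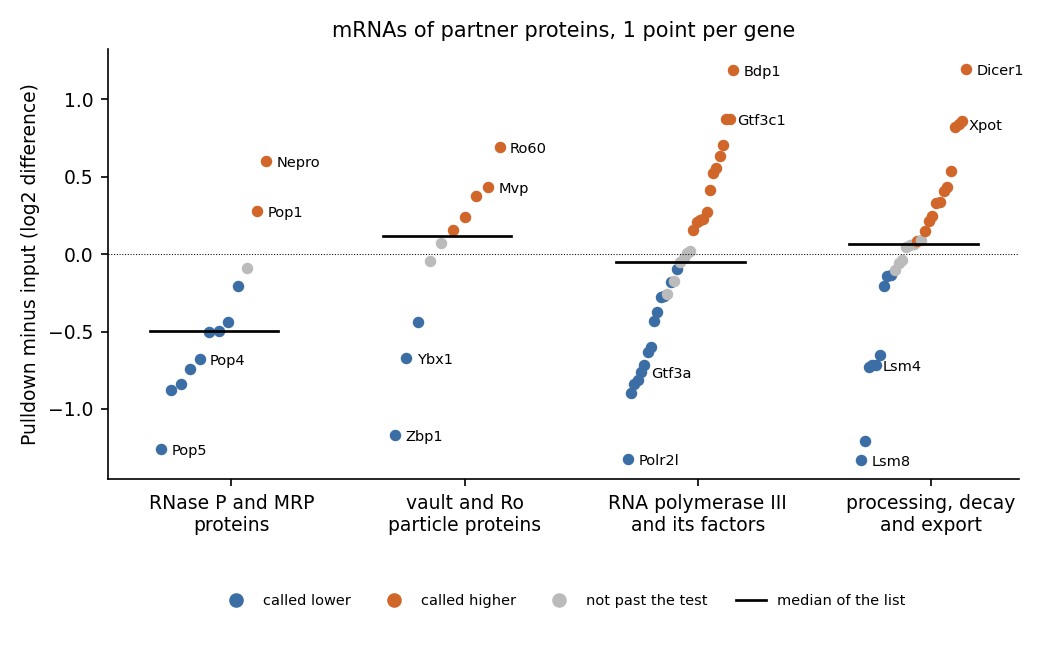
Log2 difference between pulldown and input (y axis) of each partner gene in 4 lists, with genes called lower in blue, called higher in orange and not past the test in grey, and a black bar at the median. The RNase P and RNase MRP list has its median at -0.50 with 9 of 12 genes lower, and the other lists have medians of -0.05 to 0.11 with genes on both sides.

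Of long noncoding RNAs known from the nucleus, Malat1 read 10.91, 10.68 and 10.36 in the input and 8.24, 8.29 and 8.91 in the pulldown, a log2 difference of -2.17 ± 0.20 (SE, limma adjusted p = 5.25e-05). It was the only 1 called lower of the 5 measured in this list, beside 17.3% of all genes. What lies behind its difference was not tested. Malat1 was also listed on a probe set with several gene symbols, which was not used. Airn rose by 0.13 (adjusted p = 0.014), a call that ended after cyclic loess (0.07) and after centring on bright probe sets (0.09), and the other 3 measured, Meg3, Snhg11 and Xist, did not pass and stayed under 6.54 in both groups.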

How the data were processed

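The deposited table held log2 expression for each probe set on each array. Per the submitters' processing notes the authors used RMA and limma, for which versions and a genome build are not given in the sources used here. Array medians are nearly equal, so a difference is set against the rest of the RNA. Of 35556 probe sets, 21789 had 1 gene symbol. The brightest of a gene's probe sets over 6 arrays was used, giving 19938 genes, of which 19856 matched the RefSeq gene table, whose spans served only as sizes and distances. Differences are pulldown minus input from limma 3.58.1 in R 4.3.3 (2-sided, no covariates), with calls at 0.05 after Benjamini-Hochberg adjustment over all genes. The 4 RNAs, the gene lists and the naming rule were chosen with earlier results of these data known. From each list the 3 calls with the smallest adjusted p in each direction and defining proteins were named, besides other small RNAs, flanking coding genes and the 8 nearest profiles. Rprl1, Rprl2, Pop5, Lsm8, Lsm6, Polr3a, Polr3b, Snapc1 to Snapc5, Nsun2, Meg3, Snhg11 and Xist were added after their values were seen. Alternatives were the replicate block, an intensity trend, array weights, cyclic loess, centring on bright probe sets, the mean of probe sets, only genes above the median level, no moderation and leaving out each array. The code was tested on simulated data. Figures were drawn with matplotlib 3.10.9.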

Additional observations from a re-analysis of the deposited data

How the results depend on the processing

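The differences of the 4 RNAs kept their sign under all 12 alternatives, from -4.50 to -4.29 for Vaultrc5, -4.11 to -4.02 for Rny1, -3.37 to -3.20 for Rmrp and -3.32 to -3.19 for Rpph1. Cyclic loess moved 3 of them by more than the SD pooled over both groups, to -4.11 (Rny1), -3.37 (Rmrp) and -3.32 (Rpph1). For Rny1 and Rmrp the move was smaller than the SD of the more variable group, and the cause was not tested. With the replicate block 3467 genes were lower and 6247 higher, against 3459 and 6246 without it. Same-numbered arrays deviated with correlations of -0.06 to 0.11, so the numbers do not establish a pairing. Counts of calls over all genes and in the 4 partner lists stayed within 1.5 times under all 14 alternatives, which included leaving out each array. The lowest count over all genes was 3010 lower without moderation, and the lowest higher count was 5127 after cyclic loess. The highest counts were 4565 lower after cyclic loess and 6416 higher with array weights. The shares of all genes called lower or higher thus depend on the scaling. The low pulldown signals of Vaultrc5 and Rny1 limit how large their differences can be read.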
